A study of Schizosaccharomyces pombe with 6 samples.

Results

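The genes for the proteins of the large ribosomal subunit of fission yeast, Schizosaccharomyces pombe, are described here in mutants of nuclear RNA surveillance. Members were the features whose symbol was rpl followed by a number, and 74 of the 5483 features on the arrays met that rule. Another 2 genes with such symbols in the reference table were not analysed here. The 74 genes lie on chromosomes I (30 genes), II (28 genes) and III (16 genes). By their symbols, which differ only in the last 2 digits between paralogs, 60 of them fall into 29 paralog sets (27 sets of 2 genes and 2 sets of 3), and 14 have no paralog by this rule, among them rpl15 and rpl1502, whose symbols it does not pair.

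The large, or 60S, subunit joins amino acids in its peptidyl transferase centre, which is made of RNA, while its proteins shape the tRNA sites, the tunnel for the growing chain and the platforms for other factors. Most ribosomal protein genes of this yeast exist as duplicated copies that encode nearly the same protein from different promoters and untranslated regions. They are among the most strongly transcribed genes of a growing cell, and their mRNAs respond together to nutrients and stress. Cid14 is a non-canonical poly(A) polymerase of the nuclear TRAMP complex, which adds short tails to RNAs and helps the exosome to degrade them. Air1 is a zinc-knuckle protein of the same complex that binds RNA.

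The study compared 3 strains on 6 Affymetrix tiling arrays, with 2 biological replicates each: cid14delta (strain SPB101), in which cid14 was deleted, air1delta (strain SPB103), in which air1 was deleted, and the wild-type strain SPB76 (wt). All cultures were grown at 30 °C in YES, a rich medium, and RNA was taken by hot phenol at an optical density of 0.5. Each genotype was a single strain, so that the replicates are cultures of that strain. The array values are on a log2 scale, so that a difference of 1 is a 2-fold difference, and SE is the standard error of a difference. The targets were double-stranded, so that a gene and an overlapping transcript of the opposite strand cannot be told apart. In bulk RNA, fewer cells that express a gene and less RNA per cell cannot be told apart.

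The deletions were visible in the arrays. The cid14 values were 3.91 and 3.63 in cid14delta, 9.00 and 8.95 in air1delta and 8.92 and 8.84 in wt. The air1 values were 10.46 and 10.64 in cid14delta, 4.42 and 4.90 in air1delta and 10.49 and 10.40 in wt. Across all features the array medians lay at 9.27 and 9.28 in cid14delta, 9.27 and 9.29 in air1delta, and 9.21 in both wt arrays. By the submitters' array names, cid14delta and wt were hybridized in the same set of arrays and air1delta in another, so that set and strain cannot be told apart in comparisons with air1delta. The 12 core stress genes had a mean log2 value of 10.35 and 10.30 in cid14delta and 10.36 and 10.18 in air1delta, against 9.91 and 9.99 in wt, and 2 of 12 rose in cid14delta and 4 of 12 in air1delta (4.78% and 16.4% of all features rose). With replicate number as a block, 0 of 12 rose in cid14delta and 3 of 12 in air1delta. The genes that rose without the block were hsp16 and gst2 in both mutants, with pyp2 and tms1 in air1delta, named after their values were seen, and their part in the results for the rpl genes was not tested. Genes that mark M cells had a mean of 6.46 and 6.59 in cid14delta, 6.57 and 6.75 in air1delta and 6.504 and 6.905 in wt, where mam2 rose in both mutants and mfm2 fell in cid14delta, of 5. Genes that mark P cells had 8.49 and 8.45 in cid14delta, 8.41 and 8.44 in air1delta and 8.59 and 8.64 in wt, where map4 and sxa1 of 5 fell in air1delta. Over all features 3.88% fell in cid14delta and 9.72% in air1delta. With replicate number as a block, map4 did not pass (limma adjusted p = 0.0695), and the other calls of these markers stayed. The part of the mating-type markers was not tested either.

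Large subunit genes gave some of the strongest signals on the arrays. Their wt means ran between 7.79 for rpl3801 and 14.43 for rpl101, and 61 of 74 lay in the 90th percentile and above of all features in wt. None was at or below 4.90, the highest value of a deleted gene in its own mutant. The median over the 74 genes was 12.98 and 12.94 in the cid14delta arrays, 12.87 and 12.85 in the air1delta arrays, and 12.96 and 13.00 in the wt arrays. Replicates differed by a median of 0.0852 in cid14delta, 0.0683 in air1delta and 0.0609 in wt over these genes. Probes of different genes bind with different strength, so these ranks describe signal on the arrays and not the abundance of mRNAs, and the tests compare strains within a gene.

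The comparison of cid14delta with wt asks which mRNAs change when the polymerase of the complex is missing. The large subunit genes stood close to wt. Of the 74 genes, 1 rose, 0 fell, and 73 missed the threshold of an adjusted p under 0.05 (limma on all features, Benjamini-Hochberg). Over all features 8.66% passed, 4.78% higher and 3.88% lower in cid14delta. At an unadjusted p under 0.05, 8 members were higher and 3 lower, against 977 and 664 of all 5483 features. The median change was -0.024 over the members and 0.027 over all features, and the members' median turned positive after quantile (0.042) or cyclic loess (0.039) normalization. The 2 cid14delta arrays lay on one side of both wt arrays for 43 members, 15 above and 28 below, and this held for 62.7% of all features (35% above and 27.7% below).

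The gene that rose was rpl3601 (SPCC970.05), which encodes ribosomal protein eL36. Its values were 12.24 and 12.21 in cid14delta, against 11.84 and 11.91 in wt. Both cid14delta arrays stood above both wt arrays, and the rise was 0.35 ± 0.07 (SE; limma adjusted p = 0.0484), or 1.28-fold. This call rested close to the threshold: with replicate number as a block, which for these 2 strains marks a shared day, the adjusted p was 0.0809, and with each array centred on its median it was 0.0772. It was also lost with the trend with gene length removed and with only the 4 arrays of these strains. No call remained in any fit without 1 array. Its paralog rpl3602 (SPBC405.07) had 9.86 and 10.03 in cid14delta, against 9.78 and 10.16 in wt, with arrays that overlapped and a change of -0.03 ± 0.14. The change of the rpl3601 to rpl3602 ratio was 0.38 ± 0.12 (95% interval 0.09 to 0.66; limma adjusted p = 0.145, and 0.0244 with replicate number as a block).

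The largest differences in cid14delta did not pass the test. The genes of eL41, a very short peptide at the contact with the small subunit, had the largest positive one in rpl4101 (SPAC3G6.13c), with 12.44 and 13.03 in cid14delta, against 12.25 and 12.13 in wt. The cid14delta replicates of that gene lay far apart, and the difference was 0.54 ± 0.19 (limma adjusted p = 0.132). Its paralog rpl4102 (SPAC3F10.18c) had 13.999 and 14.13 in cid14delta, against 13.79 and 13.56 in wt, a difference of 0.39 ± 0.11 (adjusted p = 0.0889). In both genes the cid14delta arrays stood above the wt arrays. The second largest was rpl29 (SPBC776.01), the gene of the small protein eL29, with 11.64 and 11.52 in cid14delta, against 11.02 and 11.31 in wt, with a difference of 0.41 ± 0.11 (limma adjusted p = 0.0776). The gene rpl2301 (SPAC3G9.03) of uL14 had 13.39 and 13.21 in cid14delta, against 13.01 and 13.11 in wt, with a difference of 0.24 ± 0.10 (adjusted p = 0.161).

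At the other end stood rpl3002 (SPAC1250.05), the gene of eL30. Its values were 11.65 and 11.39 in cid14delta, against 11.83 and 11.99 in wt, without overlap, and the difference was -0.39 ± 0.11 (limma adjusted p = 0.0802). That difference passed with trended and robust moderation (limma adjusted p = 0.0494). The gene rpl102 (SPBC30D10.18c) of uL1 followed with 9.12 and 9.23 in cid14delta, against 9.55 and 9.37 in wt, with a difference of -0.29 ± 0.08 (adjusted p = 0.0914). With the trend with gene length removed this difference was -0.36 and passed (limma adjusted p = 0.0455). For rpl1602 (SPAC23A1.11) the difference was -0.25 ± 0.09, for rpl401 (SPBC1711.06) of uL4 it was -0.20 ± 0.08, and for rpl2502 (SPBC4F6.04) it was -0.20 ± 0.09, each with an adjusted p above 0.05. Among the 33 paralog pairs, 0 ratios passed limma's test in cid14delta (6 at an unadjusted p under 0.05, against 14 of all 62 pairs). With replicate number as a block 1 did, that of rpl3601 to rpl3602. After cyclic loess normalization that of rpl101 to rpl102 passed (0.43, limma adjusted p = 0.0359). Over the 62 pairs of all cytoplasmic ribosomal protein genes, 2 passed without the block (3.23%). With the block those 2 still passed, and so did the ratios of rpl3601 to rpl3602 and of rps1401 to rps1402. For the latter the limma adjusted p was 0.0174.

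**Figure D1:**
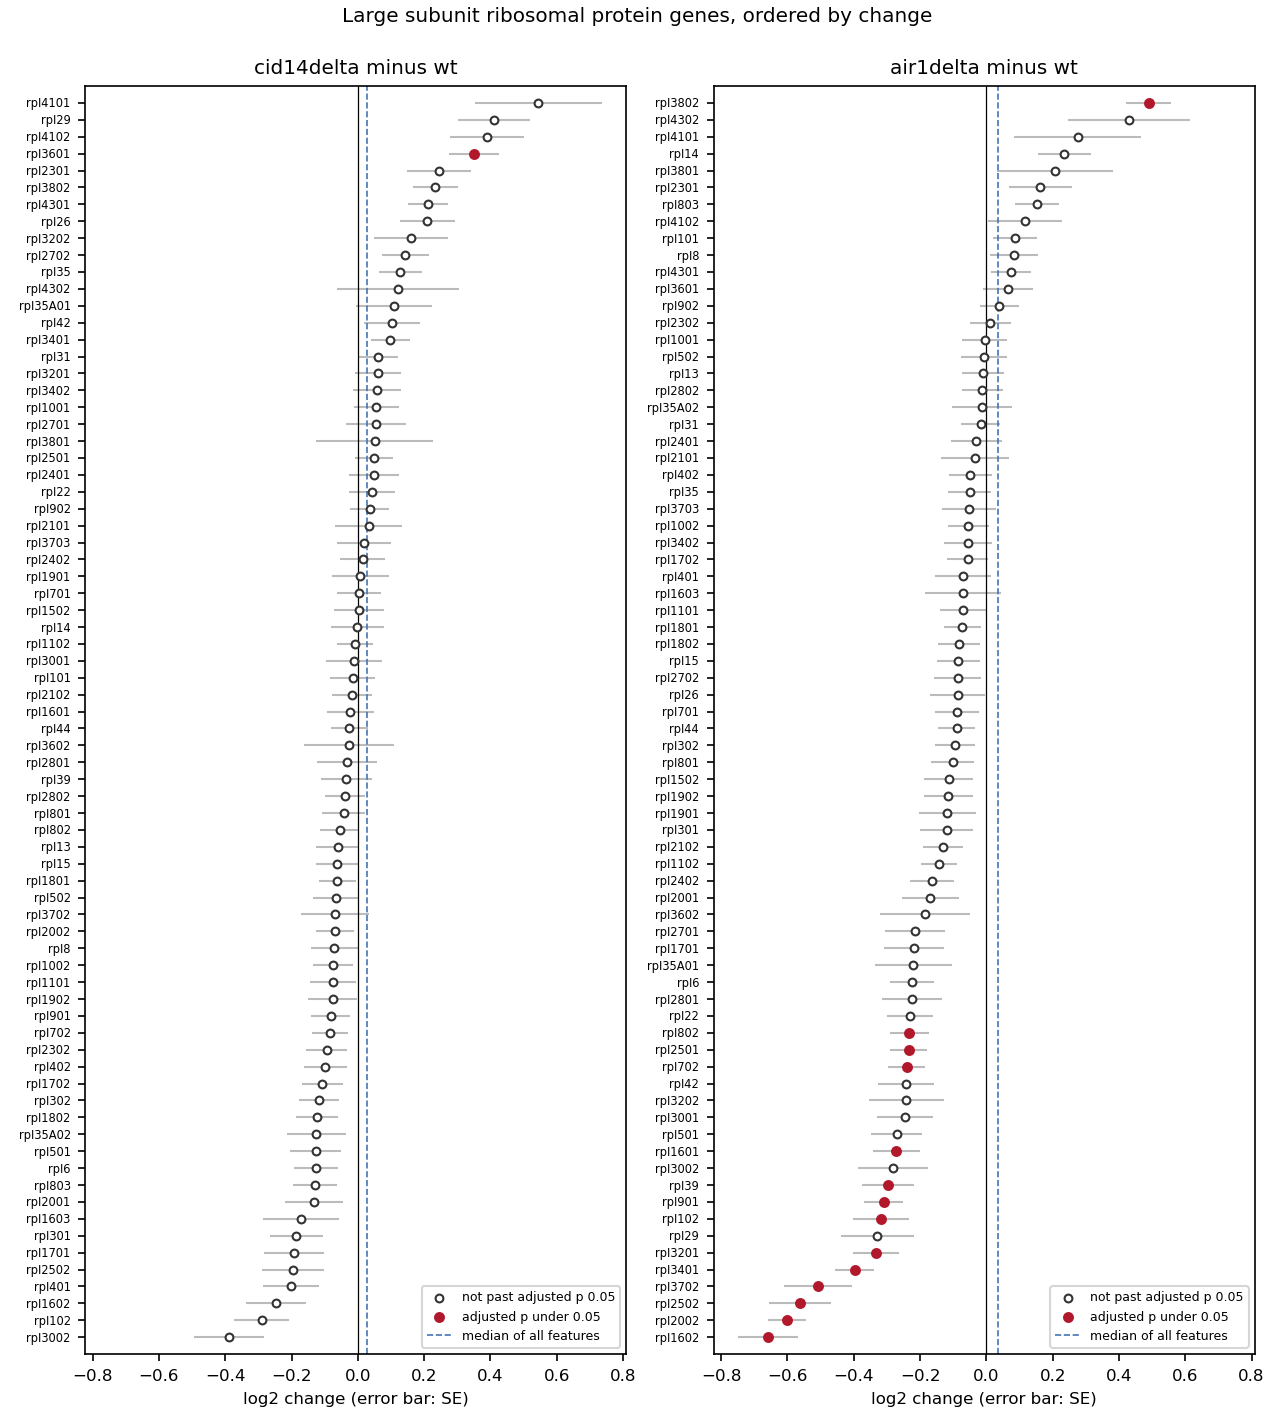
Log2 change of each of the 74 large subunit genes, with its SE, in cid14delta minus wt (left) and air1delta minus wt (right), ordered by change in each panel. Filled points passed limma's test: 1 gene on the left, rpl3601, and 14 on the right, of which 13 lie below 0. Dashed lines mark the median of all features.

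The comparison of air1delta with wt asks the same question for the RNA-binding protein of the complex. Here 13 of the 74 large subunit genes fell, 1 rose and 60 missed the threshold. At an unadjusted p under 0.05, 21 were lower and 2 higher, against 901 and 1357 of all 5483 features. The 13 genes belong to paralog sets except rpl39, and in most of their sets the other copy did not pass the test. The largest falls were those of rpl1602 (a 1.58-fold fall), rpl2002 (1.52-fold), rpl2502 (1.48-fold) and rpl3702 (1.42-fold). The gene that rose was rpl3802 (1.4-fold).

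Of the members, 18.9% passed, against 26.2% of all features, among which 16.4% rose and 9.72% fell. The members' share of falls, 17.6%, stood above that background in the values as deposited. After quantile normalization 3 members rose and 8 fell (10.8%, against 12.1% of all features), and after cyclic loess 2 rose and 8 fell (10.8%, against 11.1%). With each array centred on its median, 1 rose and 20 fell (27%, against 15.1%). The excess of falls therefore depended on the scaling. The median change was -0.089 over the members and 0.034 over all features as deposited. After centring, which shifts all features of an array alike, these medians were -0.16 and -0.038. They were -0.0064 and -0.019 after quantile normalization, and -0.0073 and -0.0029 after cyclic loess. In the values as deposited, 60 members had a negative and 14 a positive change, against 2445 and 3038 of all 5483 features. The 2 air1delta arrays lay on one side of both wt arrays for 54 members, 11 above and 43 below, which held for 69% of all features (39.3% above and 29.7% below). With replicate number as a block, 8 of the 14 members passed and rpl102, rpl1601, rpl2501, rpl39, rpl702 and rpl802 did not. The labels tie those numbers to shared days for cid14delta and wt, not for air1delta. Leaving out 1 array left between 1 call, without air1delta replicate 2, and 7 calls.

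**Figure D2:**
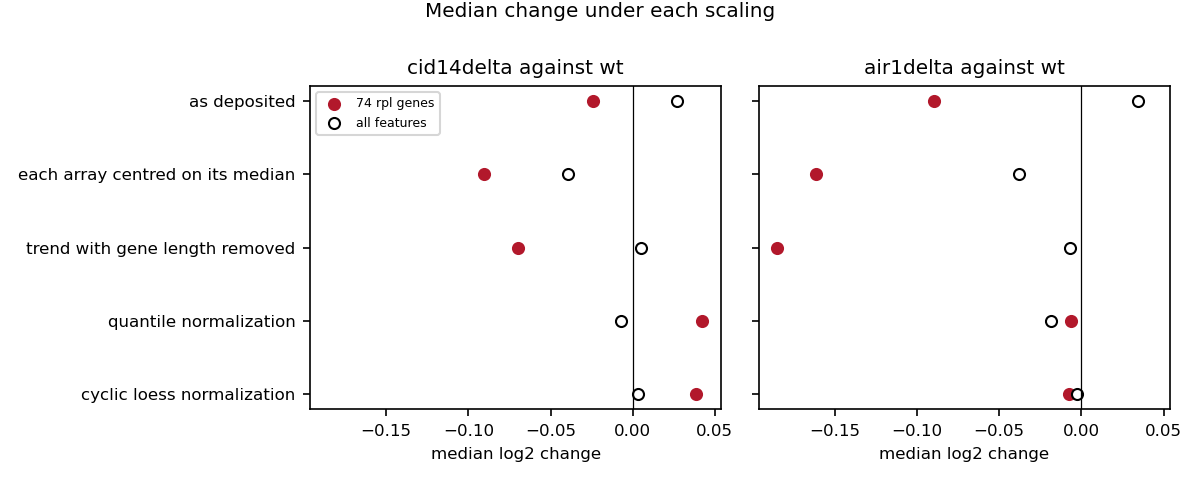
Median log2 change of the 74 large subunit genes (filled) and of all features (open) in cid14delta against wt (left) and air1delta against wt (right), for the values as deposited and under 4 other scalings. In air1delta the members' median lay between -0.18 and -0.0064, and in cid14delta it crossed 0, between -0.090 and 0.042.

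The uL13 genes, whose protein lies on the outer face of the subunit, showed the largest fall. rpl1602 (SPAC23A1.11) had values of 12.58 and 12.42 in cid14delta, 12.15 and 12.03 in air1delta and 12.82 and 12.68 in wt. Both air1delta arrays were below every array of the other strains, and the fall against wt was 0.66 ± 0.09 (SE; limma adjusted p = 0.0116). The copy rpl1601 (SPBC839.13c) had 13.72 and 13.62 in air1delta, against 13.95 and 13.93 in wt, a fall of 0.27 ± 0.07 (adjusted p = 0.0424). After quantile normalization the change was -0.21 and did not pass. The copy rpl1603 (SPBC2G2.05) had 9.45 and 9.24 in air1delta, against 9.55 and 9.28 in wt. Its arrays overlapped, with a change of -0.07 ± 0.11 (adjusted p = 0.675).

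For eL20, a protein on the solvent side, 1 of the copies passed the test. rpl2002 (SPAC26A3.04) had values of 12.10 and 12.10 in cid14delta, 11.57 and 11.56 in air1delta and 12.14 and 12.20 in wt. The replicates were almost equal, and both air1delta arrays stood below all 4 others. The fall was 0.60 ± 0.06 (limma adjusted p = 0.00773), and it passed in all 15 alternatives. rpl2001 (SPAC3A12.10) had 12.81 and 12.65 in air1delta, against 12.89 and 12.90 in wt, without overlap, but its change of -0.17 ± 0.09 did not pass (adjusted p = 0.202).

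Among proteins of the tunnel and its exit, 3 of 12 genes fell and 0 rose (9.72% and 16.4% of all features), and 2 of the 3 encode uL23, the platform where chaperones and the signal recognition particle dock. rpl2502 (SPBC4F6.04) had values of 11.87 and 11.85 in cid14delta, 11.62 and 11.37 in air1delta and 12.06 and 12.05 in wt. The air1delta arrays were the lowest in this gene, with a fall of 0.56 ± 0.09 (limma adjusted p = 0.0165). rpl2501 (SPBC106.18) had values of 11.61 and 11.56 in cid14delta, 11.31 and 11.30 in air1delta and 11.53 and 11.55 in wt, with a smaller fall of 0.23 ± 0.06 (adjusted p = 0.0358). rpl39 (SPCC663.04), the gene of eL39, which lines the tunnel and has no paralog by symbol, had 9.83 and 9.84 in air1delta, against 10.19 and 10.08 in wt. Its air1delta arrays lay below those of wt, and the fall was 0.30 ± 0.08 (adjusted p = 0.0424). The other 9 tunnel genes, which include those of uL4, uL22 and eL19, had changes that did not pass. The falls of rpl2501 and rpl39 were lost with replicate number as a block.

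The stalks are the mobile arms of the subunit, and 2 of the 4 genes of the L1 stalk and the base of the other stalk fell (9.72% of all features did). rpl901 (SPAC4G9.16c), a gene of uL6 at the stalk base, had values of 13.38 and 13.38 in cid14delta, 13.16 and 13.14 in air1delta and 13.50 and 13.42 in wt. The fall in air1delta was 0.31 ± 0.06 (limma adjusted p = 0.0209). It did not pass after quantile normalization, where the change was -0.18. Its paralog rpl902 (SPCC613.06) had 12.28 and 12.26 in air1delta, against 12.25 and 12.21 in wt, with a change of 0.04 ± 0.06 (adjusted p = 0.652). In rpl902 the air1delta arrays lay just above those of wt. For uL1, the protein of the L1 stalk that guides the leaving tRNA, rpl102 (SPBC30D10.18c) had 9.15 and 9.14 in air1delta, against 9.55 and 9.37 in wt, with a fall of 0.32 ± 0.08 (adjusted p = 0.0434). rpl101 (SPCC1183.08c) had 14.47 and 14.57 in air1delta, against 14.44 and 14.42 in wt, with air1delta above wt and a change of 0.09 ± 0.07 (adjusted p = 0.373). This fall of rpl102 did not pass with replicate number or shared day as a block or with the 4 arrays of these strains alone, and it was kept in 6 of 15 alternatives. The difference of rpl102 against wt in cid14delta was -0.29 ± 0.08, where it did not pass in the main fit. It passed there with the trend with gene length removed (-0.36, limma adjusted p = 0.0455).

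In the catalytic core, 1 of 8 genes fell (9.72% of all features), rpl802 (SPBC2F12.07c) of uL2, a protein next to the peptidyl transferase centre. Its values were 12.82 and 12.75 in cid14delta, 12.62 and 12.60 in air1delta and 12.84 and 12.84 in wt, and the fall was 0.23 ± 0.06 (limma adjusted p = 0.039). The other uL2 genes did not pass. rpl801 (SPAC1F7.13c) had 14.06 and 13.99 in air1delta, against 14.17 and 14.08 in wt, a change of -0.10 ± 0.07 (adjusted p = 0.29), and its arrays lay below those of wt by a narrow margin. rpl803 (SPBC839.04) had 13.60 and 13.65 in air1delta, against 13.46 and 13.49 in wt, with both air1delta arrays above wt and a change of 0.15 ± 0.07 (adjusted p = 0.149), which passed after quantile normalization (0.27). The fall of rpl802 was lost after quantile and cyclic loess normalization. In the 5S RNA particle, which holds uL18 and uL5, and among the genes of small subunit contacts, eL24 and eL41, 0 of 4 genes each passed (2 and 0 at an unadjusted p under 0.05).

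The remaining genes that changed encode proteins placed in none of these groups. rpl3401 (SPAC23A1.08c), of eL34, had values of 14.09 and 14.04 in cid14delta, 13.55 and 13.59 in air1delta and 13.94 and 13.99 in wt. The air1delta arrays were lowest, and the fall was 0.40 ± 0.06 (limma adjusted p = 0.0136). Its paralog rpl3402 (SPCC1322.15) had 9.63 and 9.63 in air1delta, against 9.76 and 9.61 in wt, overlapping, with -0.06 ± 0.07 (adjusted p = 0.591). rpl3702 (SPCC1223.05c), of the zinc-binding eL37, had values of 13.54 and 13.46 in cid14delta, 13.19 and 12.93 in air1delta and 13.62 and 13.52 in wt, with a fall of 0.51 ± 0.10 (adjusted p = 0.0233). The other eL37 gene, rpl3703 (SPAPB17E12.05), had 12.16 and 12.02 in air1delta, against 12.08 and 12.21 in wt, overlapping, with -0.05 ± 0.08 (adjusted p = 0.662). In eL32, rpl3201 (SPBC16C6.11) had 12.30 and 12.41 in air1delta, against 12.65 and 12.73 in wt, and fell by 0.33 ± 0.07 (adjusted p = 0.0264). Its paralog rpl3202 (SPAC3H5.10) had 12.59 and 12.53 in air1delta, against 12.90 and 12.70 in wt, without overlap, and a change of -0.24 ± 0.11 that did not pass (adjusted p = 0.167). In uL30, rpl702 (SPAC3H5.07) had 13.31 and 13.30 in air1delta, against 13.56 and 13.54 in wt, and fell by 0.24 ± 0.05 (adjusted p = 0.0309), and rpl701 (SPBC18H10.12c) had 13.90 and 13.80 in air1delta, against 13.94 and 13.94 in wt, with a change of -0.09 ± 0.07 (adjusted p = 0.358). The falls of rpl3201 and rpl702 were lost after quantile and cyclic loess normalization.

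Against these falls stood rpl3802 (SPAC30D11.12), of eL38, the 1 large subunit gene that rose in the values as deposited. Its values were 10.93 and 10.93 in cid14delta, 11.20 and 11.17 in air1delta and 10.63 and 10.76 in wt. Both air1delta arrays were the highest, the cid14delta arrays lay between, and the rise against wt was 0.49 ± 0.07 (limma adjusted p = 0.0118). Its paralog rpl3801 (SPBC577.02) had 8.03 and 7.96 in air1delta, against 7.71 and 7.86 in wt, with air1delta above wt by 0.21 ± 0.18 (adjusted p = 0.411). Other positive changes did not pass: 0.43 ± 0.18 in rpl4302 (SPBC83.02c) of eL43, 0.28 ± 0.19 in rpl4101 and 0.24 ± 0.08 in rpl14 (SPAC1805.13) of eL14. That of rpl4302 passed when only the 4 arrays of these strains, or those and 1 cid14delta array, were fitted (adjusted p = 0.0477). For rpl14 the values were 13.32 and 13.28 in air1delta, against 13.09 and 13.04 in wt, without overlap, and its change passed after quantile (0.34) and cyclic loess (0.32) normalization.

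**Figure D3:**
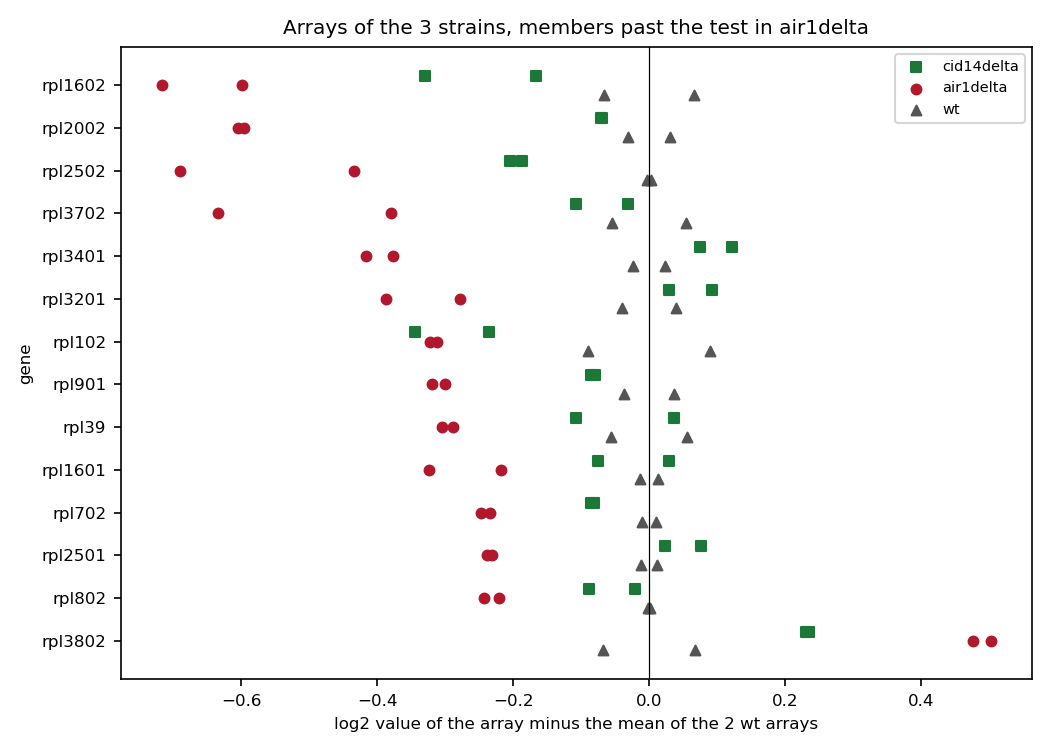
Log2 value of each array minus the mean of the 2 wt arrays, for the 14 large subunit genes that passed the test in air1delta (squares, cid14delta; circles, air1delta; triangles, wt). The air1delta arrays stand apart from wt on the left in 13 genes and on the right in rpl3802.

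The question whether paralogs changed unequally was tested on the log2 ratio of each pair within each array, lower number over higher, with limma and Benjamini-Hochberg adjustment over 62 pairs of ribosomal protein genes. A shift common to both genes of a pair drops out of this ratio. In air1delta against wt, 9 of the 33 large subunit pairs passed. Over all 62 pairs 22 passed (35.5%), and the share of the large subunit pairs was 27.3%. The 33 pairs are not independent, because each set of 3 genes gives 3 of them.

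The rpl1602 to rpl1603 ratio was 2.70 and 2.79 in air1delta, against 3.27 and 3.40 in wt, and it fell by 0.59 ± 0.09 (SE; limma adjusted p = 0.00327), in all 15 alternatives. The ratio of rpl1601 to rpl1602 was 1.57 and 1.58 in air1delta, against 1.14 and 1.24 in wt, higher by 0.39 ± 0.08 (adjusted p = 0.0112). Within the uL13 set, then, rpl1602 stood lower relative to both other copies. For eL20, the rpl2001 to rpl2002 ratio was 1.24 and 1.09 in air1delta, against 0.75 and 0.71 in wt, higher by 0.43 ± 0.09 (adjusted p = 0.0112). For uL1, the rpl101 to rpl102 ratio was 5.32 and 5.43 in air1delta, against 4.89 and 5.05 in wt, higher by 0.40 ± 0.09 (adjusted p = 0.0112). In each of these pairs the air1delta arrays lay clear of the wt arrays. In cid14delta the rpl101 to rpl102 ratio changed by 0.27 ± 0.09 and rpl1601 to rpl1602 by 0.23 ± 0.08, without passing. For these ratios the difference between the mutants did not pass either (limma adjusted p = 0.315 and 0.185). The cid14delta changes of rpl2001 to rpl2002 and of rpl1602 to rpl1603 were -0.06 ± 0.09 and -0.08 ± 0.09.

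For eL37, the rpl3702 to rpl3703 ratio fell by 0.46 ± 0.11 (adjusted p = 0.0127), and for uL6 the rpl901 to rpl902 ratio fell by 0.35 ± 0.08 (adjusted p = 0.0112). In uL2, the rpl802 to rpl803 ratio was -0.98 and -1.05 in air1delta, against -0.62 and -0.64 in wt, and fell by 0.38 ± 0.08 (adjusted p = 0.0112). These 3 ratios passed under every scaling tried. The rpl3401 to rpl3402 ratio fell by 0.34 ± 0.09 (adjusted p = 0.0188), but by 0.20 after quantile normalization, and it did not pass there or after cyclic loess. The rpl2501 to rpl2502 ratio was higher by 0.33 ± 0.10 (adjusted p = 0.0307) and did not pass after quantile normalization. In cid14delta the changes were -0.09 ± 0.11 (eL37), -0.12 ± 0.08 (uL6), 0.07 ± 0.08 (uL2), 0.04 ± 0.09 (eL34) and 0.25 ± 0.10 (uL23). None of them passed there. Between the mutants, the ratios of uL6 and uL23 did not pass (limma adjusted p = 0.0561 and 0.544).

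In 3 other sets of 2, 1 copy passed and the other did not, while the ratio did not pass, which does not show equal change. In eL32 the ratio changed by -0.09 ± 0.12 (95% interval -0.37 to 0.19), and in eL38, whose copy rpl3802 rose, by -0.28 ± 0.15 (-0.64 to 0.07). In uL30 the change was 0.15 ± 0.08 (-0.03 to 0.34). These 3 ratios did not pass. Changes of the ratio near 0 were found in eL18, rpl1801 to rpl1802, at 0.01 ± 0.08 (-0.17 to 0.19), uL4, rpl401 to rpl402, at -0.02 ± 0.08 (-0.21 to 0.16), and uL3, rpl301 to rpl302, at -0.02 ± 0.09 (-0.22 to 0.17).

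**Figure D4:**
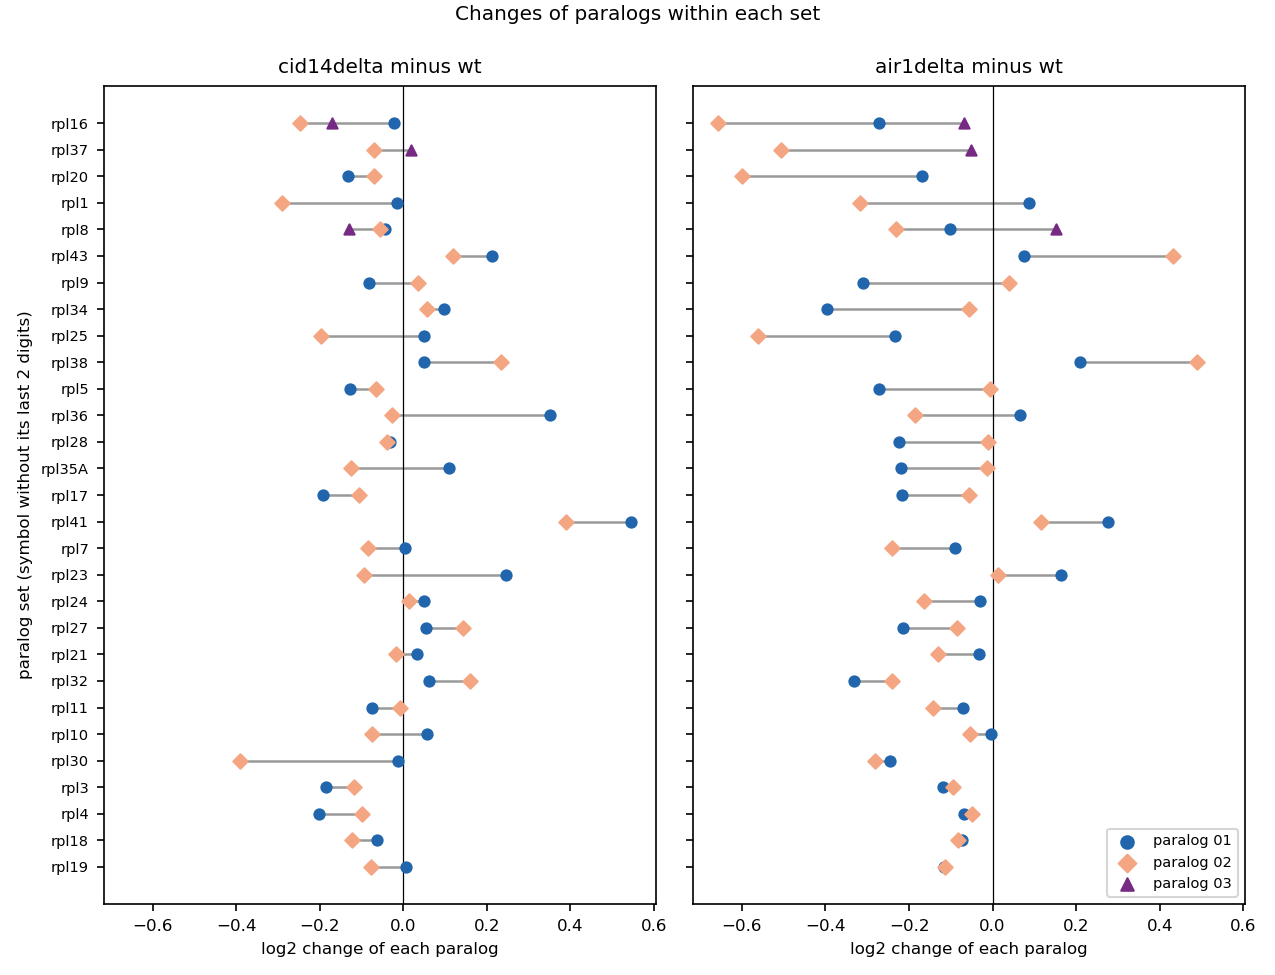
Log2 change of every gene in the 29 large subunit paralog sets in cid14delta minus wt (left) and air1delta minus wt (right), with a line joining the copies of a set. Sets are ordered by their spread in air1delta, the widest on top: rpl16, rpl37, rpl20 and rpl1 head the list, and the copies of rpl18 and rpl19 nearly coincide.

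Both mutant comparisons share the wt arrays, so their values are given side by side without a measure of likeness. Counted over both in the main fit, 15 members passed in at least 1 mutant and 0 in both, where cid14delta had only 1 call. With the trend with gene length removed, rpl102 passed in both. The same count was not made over all features, so these numbers have no background beside them. Paralogs with near-identical sequence can share probe targets, and the probes were not examined here. Sequence identity between paralogs was not measured.

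The direct comparison of air1delta with cid14delta tests whether the mutants differ. Of the 74 genes 6 fell, 0 rose and 68 did not pass (8.11%, against 10% of all features, of which 5.51% were higher and 4.5% lower). At an unadjusted p under 0.05, 24 were lower and 3 higher, against 782 and 966 of all 5483 features. The largest difference was in rpl29, the gene of eL29, with 10.81 and 10.87 in air1delta, against 11.64 and 11.52 in cid14delta. Its wt arrays lay between, at 11.02 and 11.31, and the air1delta level fell by 0.74 ± 0.11 (SE; limma adjusted p = 0.0286), relative to cid14delta. Neither mutant passed against wt for rpl29 in the main fit. With trended and robust moderation its cid14delta difference passed (0.41, limma adjusted p = 0.0492). With each array centred on its median its air1delta difference passed (-0.40, adjusted p = 0.0462). The gene rpl2002 fell by 0.53 ± 0.06 (adjusted p = 0.0173), rpl3401 fell by 0.49 ± 0.06 (adjusted p = 0.0219), and rpl1602 fell by 0.41 ± 0.09 (adjusted p = 0.0498). The last lay at the threshold. The others were rpl3201, which fell by 0.39 ± 0.07 (adjusted p = 0.0344), and rpl2501, which fell by 0.28 ± 0.06 (adjusted p = 0.042). With replicate number as a block only rpl2002 passed, a count of 1 against 6. The arrays did not overlap for 46 members, 8 higher and 38 lower in air1delta, which held for 65.2% of all features (36.3% higher and 29% lower).

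Of the paralog ratios, 8 of 33 differed between air1delta and cid14delta, against 15 of all 62 (24.2%). The largest difference was that of rpl1602 to rpl1603, whose ratio was 2.70 and 2.79 in air1delta, against 3.33 and 3.19 in cid14delta, a fall by 0.51 ± 0.09 (limma adjusted p = 0.00653). The rpl2001 to rpl2002 ratio was higher by 0.49 ± 0.09 (adjusted p = 0.00761). The rpl802 to rpl803 ratio fell by 0.46 ± 0.08 (adjusted p = 0.00653), and this passed in all 15 alternatives. In eL33 the rpl35A01 to rpl35A02 ratio was 1.92 and 1.70 in air1delta, against 2.33 and 2.17 in cid14delta, and fell by 0.44 ± 0.10 (adjusted p = 0.0202). Neither of these eL33 genes passed on its own. The ratios rpl3401 to rpl3402, rpl801 to rpl803, rpl1601 to rpl1603 and rpl3702 to rpl3703 passed as well. Each of these 4 was lost when any air1delta or cid14delta array was left out, and that of rpl1601 to rpl1603 also after quantile and cyclic loess normalization and with trended and robust moderation (kept in 8 of 15 alternatives).

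Because the targets carry no strand, the features on either side of the genes that changed are given too. The 13 genes that fell in air1delta have 26 neighbours, of which 5 fell, 6 rose and 15 did not pass (9.72% of all features fell and 16.4% rose). Next to rpl1602, frs1 changed by -0.39 ± 0.08 and tef102 by 0.06 ± 0.16. Beside rpl2002, chc1 changed by -0.23 ± 0.06 and rmi1, on the other side, by 0.33 ± 0.08. The neighbours of rpl3702 and rpl901 did not pass. Next to rpl3802, which rose, izh3 fell (change -0.55 ± 0.10) and hus5 changed by 0.06 ± 0.13. Overlap of these genes with the rpl transcripts was not tested.

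Other genes of the ribosome and of its assembly put the large subunit genes in context. Of 55 small subunit genes, 1 rose in cid14delta and 10 fell in air1delta, with a median change of -0.14 in air1delta. Over all features 4.78% rose in cid14delta and 9.72% fell in air1delta. After quantile normalization 7 of the 55 fell in air1delta (12.7%, against 12.1% of all features), with a median of -0.045. The largest of these falls was that of rps2602, which had 11.02 and 10.88 in air1delta, against 12.19 and 11.94 in wt, and fell by 1.12 ± 0.10 (limma adjusted p = 0.00749). Falls also passed in rps901 (-0.57 ± 0.08) and rps403 (-0.47 ± 0.06), and in cid14delta rps3002 rose by 0.46 ± 0.08 (adjusted p = 0.0317, 0.06 with replicate number as a block). With that block 0 of the 55 rose and 1 fell in cid14delta, where 103 of all 5483 features rose and 76 fell. The 1 that fell was rps1401 (limma adjusted p = 0.04998), at the threshold. Of 7 genes of the acidic stalk proteins and their anchor, rpp202 rose in both mutants, by 0.63 ± 0.10 in cid14delta and 0.85 ± 0.10 in air1delta. In that list rpp203 fell in cid14delta (-0.34 ± 0.07). With the block, neither cid14delta call of these 2 genes passed (adjusted p = 0.06 and 0.0632). The genes rpp103 (-0.51 ± 0.08) and rpp0 (-0.30 ± 0.06) fell in air1delta.

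Genes with the symbols of factors that assemble the large subunit had mostly higher values in both mutants. Whether each of them is an assembly factor in this yeast was not checked. Of 42, 8 rose and 1 fell in cid14delta, with a median change of 0.26, and 20 rose and 1 fell in air1delta, with a median of 0.28. Over all features 4.78% rose and 3.88% fell in cid14delta, and 16.4% rose and 9.72% fell in air1delta. The gene that fell was drs1 in both, named after its values were seen, and its role in this yeast was not checked. With replicate number as a block, 1 rose and 0 fell in cid14delta (the 1 was ebp2), and 14 rose and 1 fell in air1delta. The median stayed between 0.20 and 0.27 in cid14delta and between 0.21 and 0.27 in air1delta under the other scalings. The gene ebp2, of a nucleolar assembly factor, had 10.17 and 10.22 in cid14delta, 10.36 and 10.39 in air1delta and 9.74 and 9.62 in wt, and it rose by 0.52 ± 0.07 in cid14delta and 0.70 ± 0.07 in air1delta. The nucleolar factors rpf1 and nip7 rose by 0.55 ± 0.06 and 0.52 ± 0.06 in air1delta, and spb1, an rRNA methyltransferase, rose by 0.43 ± 0.07 in cid14delta. Of 5 genes with the symbols of dedicated chaperones of ribosomal proteins, acl4, the chaperone of uL4, rose in both mutants. Its rises were 0.72 ± 0.10 in cid14delta and 0.49 ± 0.10 in air1delta. In air1delta, sqt1, the chaperone of uL16, rose by 0.29 ± 0.07 and yar1, the chaperone of a small subunit protein, by 1.21 ± 0.29. The mRNAs of uL4, rpl401 and rpl402, and of uL16, rpl1001 and rpl1002, did not pass in either mutant. Of 7 elongation factor genes 0 passed in either mutant (1 lower in each at an unadjusted p under 0.05), and of 4 regulators of ribosomal protein genes 1, rrn7, fell in air1delta (-0.32 ± 0.07). These lists were drawn up from knowledge of the genes, in part from budding yeast. They were matched by symbol alone, so that a symbol may name another protein in fission yeast.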

How the data were processed

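RNA of 3 strains was hybridized to 6 tiling arrays, 2 per strain. The authors deposited 1 log2 value per feature and array, in a table of 5483 features and 6 columns. The submitters' processing notes name the affy package; its version, background correction, summary method and genome build were not given in these sources. The log2 scale was read from the deposited values. Features were named through a reference table of assembly ASM294v3 by locus tag, and 5357 matched, 20 of them by synonym, while 126 did not. All value columns were used.

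The deposited values were tested in R 4.3.3 with limma 3.58.1 (lmFit and eBayes, strain as the only term, all 6 arrays, 3 residual and 2.51 prior degrees of freedom), two-sided, with p-values adjusted by Benjamini-Hochberg across the 5483 features and a threshold of 0.05. Paralog log2 ratios were formed within each array and tested the same way over 62 pairs (4.87 prior degrees of freedom). The scripts were tested on simulated data. With 2 arrays per strain the precision is limited, and p-values measure only the spread between these cultures.

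The members, lists and tests were chosen with earlier results of these data known. Named genes were those that passed in any comparison, their paralogs, the 5 largest rises and falls in each mutant, the 5 highest and lowest in wt and up to 3 per other list. The list of stalk genes was narrowed after it was seen that rpp1, rpp21 and rpp40 would enter it; nsa1, nug1, cic1, noc2, syo1, tsr4 and mat1-Mc had no matching feature. Roles in the subunit follow what is known from budding yeast.

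Deviations from the strain means of same-numbered arrays correlated at -0.00632 between cid14delta and wt, 0.0413 between air1delta and wt and 0.0159 between air1delta and cid14delta, over features. The labels give the same day to same-numbered cid14delta and wt arrays, so the numbers pair these 2 strains. The main test has no block all the same, and the fit with replicate number as a block is given beside the cid14delta results whose call it changes. The alternatives were centring, quantile and cyclic loess normalization, removal of a trend with gene length, leaving out dim features, trended and robust moderation, replicate number or shared day as a block, only the arrays compared, and each array left out. Counts without overlap under other scalings were chosen after seeing the data. Promoter and protein sequences were not used here.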

Additional observations from a re-analysis of the deposited data

How the results depend on the processing

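No direction of a named rpl call reversed under any of the 15 alternatives. With the trend with gene length removed, the 1 cid14delta call was another gene: rpl3601 was lost and rpl102 fell (-0.36, limma adjusted p = 0.0455). In cid14delta against wt, the 1 call became 0 with each array centred on its median, with a replicate block, with shared day as a block and with only the 4 arrays compared, 2 after cyclic loess and 4 with trended and robust moderation; without 1 array it was 0 throughout. In air1delta against wt, the 14 calls became 8 with a replicate block, 8 with shared day as a block and 7 with only the 4 arrays compared, and between 1 and 7 without 1 array: 1 without air1delta replicate 2, 4 without air1delta replicate 1, 3 without wt replicate 2, 6 without wt replicate 1 and 7 without either cid14delta array. In air1delta against cid14delta, the 6 calls became 1 with a replicate block, 1 with shared day as a block, 19 with trended and robust moderation and 0 to 4 without 1 array, 0 of them without either air1delta or cid14delta array.

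The median change of the members in cid14delta (-0.024) was -0.090 after centring, 0.042 after quantile and 0.039 after cyclic loess normalization, -0.070 with the length trend removed and between -0.055 and -0.012 without 1 array. In air1delta (-0.089) it was -0.16 after centring, -0.0064 after quantile and -0.0073 after cyclic loess normalization, -0.18 with the length trend removed and between -0.13 and -0.070 without 1 array. Between the mutants (-0.088) it was -0.12 with the length trend removed and between -0.14 and -0.052 without 1 array. The cause of these shifts was not tested.

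The paralog ratios that passed in cid14delta (0) were 1 after cyclic loess, with a replicate block and with trended and robust moderation, and 0 to 2 without 1 array. The count in air1delta against wt (9) stayed within 1.5 times under each alternative except without air1delta replicate 2, when 2 passed, and ranged between 2 and 13 without 1 array. Between the mutants (8) it ranged between 2 and 10 without 1 array, with 2 without air1delta replicate 1, 3 without air1delta replicate 2 and 4 without cid14delta replicate 1. With a replicate block 103 of all features rose and 76 fell in cid14delta, 727 rose and 394 fell in air1delta, and 44 rose and 28 fell between the mutants, against 475, 1434 and 549 calls in all without it. The counts without overlap stayed within 1.5 times under the 3 other scalings. Fits without 1 array assume that the lone array of a strain varies like the other strains. The 2 arrays per strain limit the precision; all members lay above the deleted genes' signal, and whether the strongest signals are compressed was not tested.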
